A study of Mus musculus with 42 samples.

Results

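The genes described here code for the RNA-binding protein TIA1, its paralogue TIAL1 and 8 other proteins of stress granules: Tia1, Tial1, G3bp1, G3bp2, Caprin1, Ubap2l, Atxn2, Atxn2l, Pabpc1 and Usp10. They were chosen by name, as 10 of the 15225 genes with polyadenylation sites (PASs) in the 3′READS files and 10 of the 12364 genes in the RNA-seq files. Their PASs were those inside the annotated gene or up to 4000 nt downstream on its strand and before the next gene, which gave 96 of 64931 assigned PASs. There were 42 libraries: 38 by 3′READS, which counts 1 read for each cleaved and polyadenylated 3′ end, and 4 by RNA-seq of coding sequences.

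The cells were NIH3T3, a mouse embryonic fibroblast line, and C2C12, a mouse muscle line studied as proliferating myoblasts (MB) and as differentiated myotubes (MT), and the labels gave the strain of all of them as C57BL/6. Untreated cells (NT) were set against cells given 250 µM sodium arsenite for 1 h (AS) and against cells washed and returned to normal medium for 4, 8, 12 or 24 h (RC4, RC8, RC12 and RC24). Total RNA of NIH3T3 cells had 3 NT and 3 AS libraries and 1 library at each recovery time. RNA labelled for 1 h with 50 µM 4-thiouridine (4sU) and the unlabelled flow-through (Ft) had 1 library each for NT and AS and for untreated (NT4h) and RC4 cells harvested 4 h later. TIA1 immunoprecipitates and their inputs came from 2 NT and 2 AS cytoplasmic lysates, and no library of a control antibody was analysed here. C2C12 cells gave 1 cytoplasmic library for each of NT, AS, NT4h and RC4 in MB and in MT, and 2 libraries of total RNA for each of MB and MT. Each cell type was a single line, the labels do not say whether replicates were separate cultures, and the study calls them biological, so p-values measure only the spread between these libraries.

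Stress granules are cytoplasmic assemblies of untranslated messages and RNA-binding proteins that form when translation initiation is blocked, as after arsenite, and dissolve when it resumes. G3BP1 and G3BP2 are the RNA-binding scaffolds that nucleate them, CAPRIN1 and USP10 compete for the same surface of G3BP, and UBAP2L promotes their assembly. TIA1 and TIAL1 bind U-rich RNA through RNA recognition motifs, and PABPC1, ATXN2 and ATXN2L are poly(A)-binding protein and its partners.

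Depth was 1048335 to 6974664 PAS reads in the 3′READS libraries (median 2874186) and 17136953 to 25193331 reads in RNA-seq. Each file leaves out clusters under 5 reads, so 0 for a PAS or gene means that no cluster of it reached 5 reads, and not absence. The 5 fibroblast markers summed to 530 to 8129 reads per 1000000 (RPM) in the 26 NIH3T3 libraries, where none of the 4 myoblast markers was listed. The same fibroblast markers summed to 3278 to 12714 RPM in C2C12 libraries, with Thy1 listed in none of them. Myog and Myh3 were at 351 to 1211 and at 657 to 1566 RPM in the 6 MT libraries, and Myog was not listed in the 6 MB libraries. All 8 myotube markers together summed to 74.4 to 255 RPM in MB and 6443 to 10002 RPM in MT, although Mymk was not listed in any library. Of the myoblast markers, Myod1 was at 8.63 to 25.8 RPM in MB and 14.2 to 38.4 RPM in MT, and Des was also higher in MT. Myf5 went the other way, with a median of 22.5 RPM in MB and 11.6 RPM in MT, and Pax7 was not listed in any library. Hmox1, an arsenite-induced gene used as a check of the labels, was at 40.8 to 190.0 RPM in the 3 NT and at 488 to 751 RPM in the 3 AS libraries of total RNA.

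The 6 most abundant members by 3′READS were listed in all 38 3′READS libraries, with 5834 reads in all for Tial1, 6598 for G3bp2, 7052 for Tia1, 12311 for Caprin1, 18832 for Ubap2l and 38880 for G3bp1. Pabpc1 was listed in 35 libraries with 1359 reads, Usp10 in 19 with 331 reads, Atxn2 in 5 with 84 reads and Atxn2l in 2 with 16 reads. These last 4 genes were well covered by RNA-seq. Per kb of coding sequence and per 1000000 reads, Pabpc1 was at 1686 in the NT library at 0 h and at 1767 in that at 4 h, the highest of the members, followed by Caprin1 at 555 and 568 and G3bp1 at 330 and 340. Ubap2l was at 143 and 133 and Atxn2l at 71.4 and 70.3. G3bp2 (56.9 and 57.4), Tial1 (53.3 and 56.9) and Tia1 (48.1 and 54.5) followed closely, and 2 libraries do not set the order of these 3. Atxn2 (34.1 and 34.2) and Usp10 (34.0 and 31.4) were lowest. The difference between the assays was not tested further, and 3′READS comparisons of Pabpc1, Usp10, Atxn2 and Atxn2l rest on few reads.

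The PASs of Tia1, Tial1 and G3bp1 carry the isoform results below, so the 30 nt that end at 7 of them are shown, read from the mm9 genome (NCBIM37) on the strand of the gene. Capitals mark the AATAAA nearest the PAS, or ATTAAA where AATAAA is missing, the hexamers that direct cleavage and polyadenylation. AATAAA was in 33.0% and ATTAAA without it in 12.5% of such 30-nt windows over all 64931 PASs, searched on the transcript strand only. The 253-nt window of Tial1 holds another AATAAA, left in lower case. Tia1 (ENSMUSG00000071337.4) lies on the plus strand of chromosome 6 at 86354213 to 86383397. Its 2 main PASs are in the 3′UTR, 1813 and 2430 nt past the stop codon, at chr6:86382145-86382174 and chr6:86382762-86382791, and each name below gives this 3′UTR length. Tial1 (ENSMUSG00000030846.9) is on the minus strand of chromosome 7 at 135583291 to 135605231, with PASs at chr7:135585794-135585823, chr7:135585306-135585335 and chr7:135583291-135583320. G3bp1 (ENSMUSG00000018583.4) is on the plus strand of chromosome 11 at 55283187 to 55318340, with 2 PASs in the annotated 3′UTR, of which the first is shown, at chr11:55313623-55313652, and 1 just past its end, at chr11:55318315-55318344.
Tia1, 1813 nt: aagatgAATAAAttttttaaatacttggaa
Tia1, 2430 nt: gatATTAAAattcctttatgttttatatga
Tial1, 253 nt: aaaaaactaaaataaagtcAATAAAgacaa
Tial1, 741 nt: tggtgtttatATTAAAgtcagacggtcata
Tial1, 2756 nt: aagtctttcAATAAAgactagtctatgtaa
G3bp1, 482 nt: gtggctaactgAATAAAaggtggttgcaga
G3bp1, 5174 nt: cctaccAATAAAtattcatggctgaacaaa

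TIA1 is known for binding runs of U, so TTTT was counted on the transcript strand, overlapping matches included, from the stop codon to each PAS. Across the annotated 3′UTRs of 10077 genes with reads in the TIA1 and input libraries, the median density of TTTT was 11.9 per 1000 nt. The 2756-nt 3′UTR of Tial1 held 115 matches, a density of 41.7 per 1000 nt that 2.46% of those 3′UTRs reach. Its richest window of 30 nt held 26 Us, which 4.91% of the 3′UTRs reach in any window. The 2430-nt 3′UTR of Tia1 had a density of 25.1 (reached by 13.0%), the 1215-nt 3′UTR of G3bp1 29.6 (7.6%), and the 2621-nt 3′UTR of G3bp2 18.3 (27.4%). The 482-nt isoform of G3bp1 had 8.3 (64.3%), and the 351-nt 3′UTR of Ubap2l at 8.55 (63.3%). Density did not simply follow length: the 253-nt isoform of Tial1 had 27.7 (9.38%) and the 5174-nt isoform of G3bp1 15.7 (35.6%). Caprin1, at 24.3 for its 1275-nt 3′UTR (14.2%), was as dense in this motif as Tia1. The richest 30-nt windows of 4 members are shown to make these densities visible, with runs of at least 4 T in capitals: Tial1 at chr7:135584856-135584885 on the minus strand, G3bp1 at chr11:55313781-55313810 and Tia1 at chr6:86382157-86382186 on the plus strand, and Ubap2l at chr3:89810444-89810473 on the minus strand. A match is a description of the letters and not a binding site.
Tial1, 26 Us: agTTTTTTTTTTgTTTTTTTTTgTTTTTTT
G3bp1, 20 Us: TTTTTTTTTTTTTgaggtagagTTTTTcat
Tia1, 19 Us: TTTTTTaaatacttggaaTTTTatttcttt
Ubap2l, 15 Us: gggctgtgTTTTgtgtgtgtgtataaattt

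The immunoprecipitates addressed which messages TIA1 holds, and the messages of TIA1 itself, TIAL1 and G3BP2 were enriched in them. In NT cells, Tia1 had 199 and 154 reads in the 2 inputs and 353 and 803 in the matching immunoprecipitates, or 54.6 and 61.0 against 111 and 131 RPM. The log2(TIA1/Input) of Tia1 was thus 1.02 and 1.10 in NT lysates 1 and 2 and 1.88 and 1.73 in the AS lysates, where the reads were 115 and 112 in input and 505 and 917 in the immunoprecipitates. In all 4 lysates the immunoprecipitate was above its input. Across all genes with at least 20 reads in both, the median log2(TIA1/Input) was between -0.04 and 0.22 in the 4 lysates.

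Tial1 had log2(TIA1/Input) of 2.28 and 1.26 in NT and 1.76 and 0.36 in AS, from 170, 60, 169 and 78 input reads. The first lysate of each treatment was the higher. G3bp2 was at 2.28 and 0.98 in NT and 1.26 and 1.54 in AS, from only 49, 36, 78 and 28 input reads. G3bp1 showed a smaller and more even enrichment of 0.62 and 0.58 in NT and 0.75 and 0.86 in AS, with at least 918 reads in each library.

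Caprin1 and Ubap2l were not enriched. Caprin1 was close to its input, at 0.08 and 0.39 in NT and -0.22 and 0.16 in AS. Ubap2l was below its input in all 4 lysates, at -0.81 and -0.95 in NT and -0.20 and -0.62 in AS. On few reads, Pabpc1 was above its input in both NT lysates and AS lysate 1, and Usp10 in the first NT and AS lysates. Pabpc1 had 18 and 23 input reads and 133 and 156 immunoprecipitate reads in NT, ratios of 3.08 and 1.48, and ratios of 1.51 and -0.47 in AS. Its main PAS, with 75.1% of its reads over all libraries, had ratios of 2.7 and 0.69 in NT and 1.14 and 0.75 in AS. A PAS past the annotated gene end added 38 and 25 immunoprecipitate reads in NT and was not listed in any input. Usp10 had at most 8 reads in an input and 47, 8, 27 and 6 in the immunoprecipitates, with log2(TIA1/Input) of 2.75 and 1.69 in the first NT and AS lysates, where its input was listed. These Usp10 reads lay at a PAS inside a coding exon and not in the 3′UTR. That PAS held 90.9% of the Usp10 reads of all 3′READS libraries. Atxn2 was listed only in the AS immunoprecipitates, with 5 and 26 reads, and Atxn2l only in 1 NT immunoprecipitate, with 9.

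**Figure D1:**
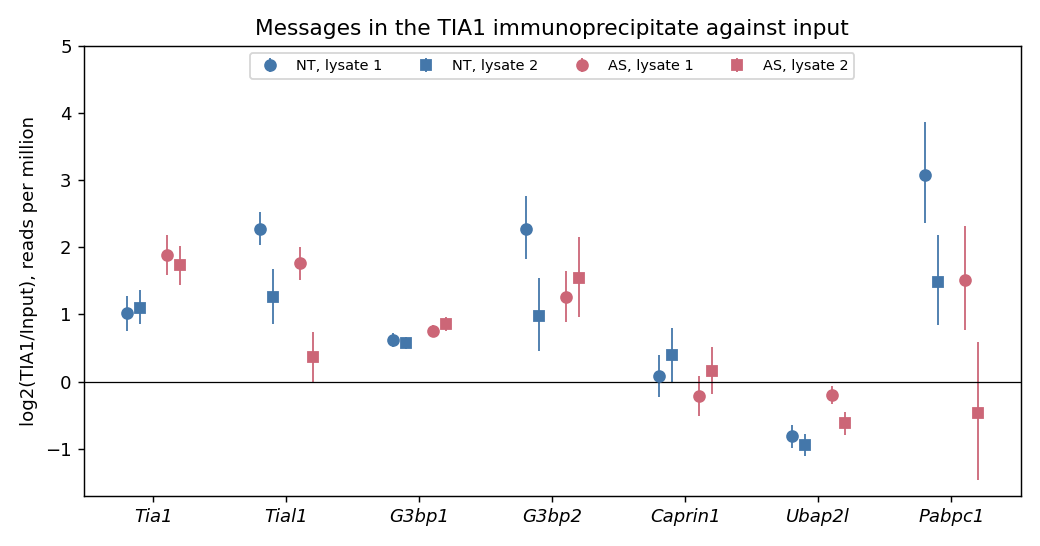
Log2(TIA1/Input) of 7 members (y axis, from reads per 1000000) in the 2 NT and 2 AS lysates, with bars for the 95% exact interval of the ratio of the 2 read counts, which covers counting error only. Tia1, Tial1, G3bp1 and G3bp2 lie above 0 in all 4 lysates and Ubap2l below 0 in all 4.

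By edgeR's quasi-likelihood test over all 10109 genes, with each lysate as a block and library totals as scale, 3 of the 8 members tested were enriched in NT and none was depleted, against 11.2% and 8.16% of all genes. These were Tial1 (log2 fold change 1.79 ± 0.42 SE, adjusted p = 0.00961), G3bp2 (1.64 ± 0.48, adjusted p = 0.0295) and Tia1 (1.06 ± 0.32, adjusted p = 0.0352). In AS, 1 member, Tia1, passed (1.80 ± 0.33, adjusted p = 0.00275) and none was depleted, against 11.1% enriched and 6.83% depleted among all genes. The members' median was 1.35 in NT and 0.94 in AS, beside 0.104 and 0.247 over all genes. The values that came near the threshold were Ubap2l in NT (-0.88 ± 0.30, adjusted p = 0.0537), Pabpc1 in NT (2.26 ± 0.80, adjusted p = 0.0643), and in AS G3bp2 (1.39 ± 0.47, adjusted p = 0.0567), G3bp1 (0.80 ± 0.27, adjusted p = 0.0582) and Tial1 (1.08 ± 0.42, adjusted p = 0.096). The Tia1 call in NT did not survive scaling by TMM (0.93, adjusted p = 0.0633) or median ratio (0.90, adjusted p = 0.069), under which Ubap2l passed as depleted (-1.01 and -1.03, adjusted p = 0.031 and 0.0282). By DESeq2 G3bp2 missed the threshold in NT (adjusted p = 0.0612). Without NT lysate 1, no member passed in NT, and Tial1 was at 1.26 (adjusted p = 0.103) and G3bp2 at 0.98 (adjusted p = 0.345). Leaving out any 1 of the 4 lysates ended the Tia1 call in NT (adjusted p = 0.081 to 0.165), and leaving out either AS lysate, which enter the same fit, also ended that of G3bp2 (adjusted p = 0.0754 and 0.0666). Without AS lysate 1 or 2, Tia1 in AS was at 1.73 and 1.88 but was not called (adjusted p = 0.124 and 0.0965). Without NT lysate 1 or 2, Tial1 (adjusted p = 0.0294 and 0.0338), G3bp2 (0.0177 and 0.0166) and G3bp1 (0.0351 and 0.0411) were called in AS as well.

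Whether arsenite changed TIA1 binding was tested as the difference between the log2(TIA1/Input) values of AS and NT. No member was called in either direction among 8 tested, while 0% of all genes were called higher and 0.0198%, or 2 genes, lower. Tia1 had the largest positive difference among the members, 0.74 ± 0.45 SE (unadjusted p = 0.125, adjusted p = 1 by edgeR), and both AS lysates lay above both NT lysates. Tial1 differed by -0.71 ± 0.59 and Ubap2l by 0.47 ± 0.42, each with an adjusted p of 1. Over all genes 410 passed an unadjusted 0.05, and DESeq2 called 24.

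Other stress granule genes from a list of 44 were bound unevenly as well. Of 40 tested, 10 were enriched and 5 depleted in NT, and 8 were enriched and 3 depleted in AS. The largest changes in NT were Ybx1, a cold-shock domain protein that packages messages, depleted at -2.83 ± 0.82 (adjusted p = 0.0285), Nufip2, a partner of FMRP (2.38 ± 0.36, adjusted p = 0.000764), and Fmr1, which codes for FMRP, a regulator of translation (2.37 ± 0.33, adjusted p = 5e-04). In AS they were Otud4, a deubiquitinase (2.13 ± 0.31, adjusted p = 0.000917), Fmr1 (2.07 ± 0.33, adjusted p = 0.00124) and Pum2, a Pumilio RNA-binding repressor (2.05 ± 0.36, adjusted p = 0.00207). All of these are edgeR values.

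TIA1 binding could be followed for single 3′UTR isoforms, since each PAS is counted on its own. For G3bp1, the 482-nt isoform had log2(TIA1/Input) of -0.40 and -0.78 in NT and -0.06 and 0.08 in AS. The 1215-nt isoform was at 1.02 and 0.78 in NT and 1.06 and 0.98 in AS. The 5174-nt isoform was at 0.85 and 1.22 in NT and 1.35 and 1.25 in AS. Thus in every lysate both longer isoforms, which contain the T-run window shown above, were above the shortest, which does not.

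The distal 2756-nt isoform of Tial1, which holds the window with 26 Us, was at 2.33 and 2.31 in NT and 1.81 and 0.78 in AS. Its 741-nt isoform was at 0.51 and -1.22 in NT and -0.60 and -0.48 in AS, with 39 reads or fewer in each library. The 253-nt isoform was listed in both libraries of a lysate only for NT lysate 2 (-0.33) and AS lysate 2 (-0.05). In each lysate the distal isoform was the highest of those with a ratio. In AS lysate 1 the 253-nt isoform had 9 immunoprecipitate reads and no listed input, so it could not be ranked.

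The 2621-nt isoform of G3bp2 was at 3.19 and 1.44 in NT and 1.71 and 1.72 in AS, from 21 to 39 input reads. The isoforms of Tia1 were closer to each other: the 1813-nt isoform was at 0.11 and 1.01 in NT and 1.81 and 1.60 in AS, and the 2430-nt isoform at 1.26 and 1.06 in NT and 1.92 and 1.43 in AS. The main, 1275-nt isoform of Caprin1, as dense in TTTT as Tia1, was at -0.64 and -0.37 in NT and 0.35 in AS lysate 2. In AS lysate 1 it had 66 input reads and was not listed in the immunoprecipitate. The 1790-nt isoform of Caprin1 was at 0.25 and 0.04 in NT and 0.91 and -0.21 in AS. Ubap2l ends in 3 alternative last exons with 3′UTRs of 75, 351 and 358 nt, and its main 351-nt isoform was at -0.93 and -1.14 in NT and -0.02 and -0.85 in AS. Its shortest, 75-nt isoform, which holds no TTTT, was above the 351-nt isoform in every lysate, at -0.13 and -0.28 in NT and 0.47 and -0.11 in AS. The 358-nt isoform was at -1.18 and -1.06 in NT and -1.10 and 0.55 in AS.

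**Figure D2:**
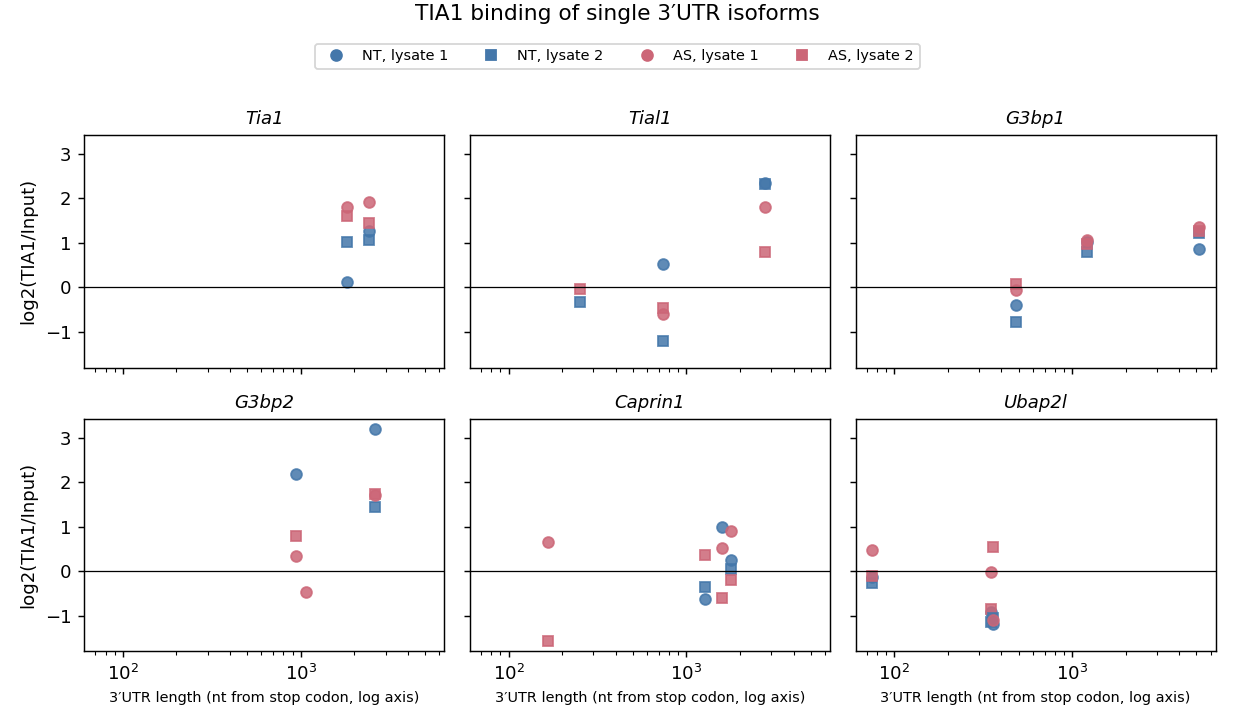
Log2(TIA1/Input) (y axis) of each main 3′UTR isoform of 6 members against its 3′UTR length in nt from the stop codon (log x axis), with 1 point for each lysate in which both libraries listed it. The 1215-nt and 5174-nt isoforms of G3bp1 and the 2756-nt isoform of Tial1 lie above the shorter isoforms of the same gene in every lysate.

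These isoform differences did not pass the test across all PASs. In edgeR's test of each PAS against the others of its gene, 0 of the members' PASs were called in NT and 0 in AS, where 0.123% (17 of 13868) and 0.0288% (4) of all PASs were called, and 898 and 644 had an unadjusted p under 0.05. The 482-nt PAS of G3bp1 had the relative log2 change of -0.82 in NT (unadjusted p = 0.00663, adjusted p = 0.467) and of -0.54 in AS (unadjusted p = 0.0588, adjusted p = 1). The 2756-nt PAS of Tial1 had 0.41 in NT (adjusted p = 0.973).

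PAS use itself differed between libraries of 1 group. The 2756-nt isoform of Tial1 was not listed among 235 reads in NT replicate 1 and took 92.6% and 85% in NT replicates 2 and 4, and it took 4.07%, 87.0% and 48.7% in the AS libraries of the same numbers. Likewise it took 92.9% and 36.7% in the 2 NT inputs and 91.7% and 35.9% in the 2 AS inputs. For this PAS, the largest differences were between replicate numbers and not between NT and AS of 1 number.

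Right after arsenite, total RNA showed no change in the members that passed a test. Tia1 was at 51.7, 40.5 and 36.2 RPM in NT replicates 1, 2 and 4 and at 47.7, 41.4 and 19.5 RPM in AS. The ranges overlap, although the AS library of replicate 4, with 23 reads, is the lowest. Ubap2l was at 211, 329 and 202 RPM in NT and at 169, 246 and 183 RPM in AS, lower in each of the 3 pairs. G3bp1 was at 428, 519 and 196 RPM in NT and at 368, 466 and 160 RPM in AS, also lower in each pair.

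By edgeR over 9608 genes, 0 of 7 members were called in either direction, as were 0% of all genes, with 20 genes at an unadjusted p under 0.05 and 0 by DESeq2. The log2 fold changes of the members ran from -0.32 ± 0.44 SE for Ubap2l to 0.34 ± 1.76 for Pabpc1, with -0.21 ± 0.48 for Tia1, and the adjusted p was 1 for each. Without NT replicate 2, which leaves AS replicate 2 without its pair, Ubap2l was at 0.03. With the replicate block, which the paired libraries warrant, 28 genes were called, and again no member (Ubap2l -0.29, adjusted p = 0.806). In the inputs of the immunoprecipitates, 2 against 2, 0 of 7 members and 0% of 8898 genes were called, with 166 genes at an unadjusted p under 0.05 and 26 called by DESeq2. With the block 117 genes were called in the inputs and no member. Use of PASs in total RNA gave 0 calls among 21 member PASs and 0% of 9306, with 3 at an unadjusted p under 0.05 and 1 called with the block.

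RNA-seq had 1 library for each treatment, so its ratios have no replicate check, and the intervals given for single libraries are 95% exact intervals of a ratio of 2 counts, which cover counting error only. Counts were scaled by the median ratio across genes. Tial1 had 1193 reads in NT and 1982 in AS, a log2 ratio of 0.51 (0.41 to 0.62), the largest rise among the 10 members. Atxn2l, with 4272 and 6209 reads, was at 0.32 (0.26 to 0.38) and Atxn2, with 2505 and 3449, at 0.24 (0.17 to 0.32). Tia1 had 1060 and 1067 reads, a ratio of -0.21 (-0.33 to -0.09). The untreated libraries at 4 h and 0 h differed by 0.18 for Tia1, 0.09 for Tial1, -0.02 for Atxn2l and about 0 for Atxn2.

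After 4 h of recovery, several members were at their lowest level of the time course, which had 1 library a time. Tia1 went from 36.2 RPM in NT and 19.5 RPM in AS to 15.9 RPM at RC4, then to 41.5 RPM at RC8, 35.1 RPM at RC12 and 47.7 RPM at RC24. Tial1 was at 26.8 RPM in NT and 33.1 RPM in AS, had 8 reads (4.24 RPM) at RC4, and was at 20.8, 31.1 and 18.1 RPM at RC8, RC12 and RC24. G3bp1 was at 196 RPM in NT, 160 RPM in AS, 106 RPM at RC4 and 167 to 190.0 RPM later. G3bp2 was at 100 RPM in NT, 57.3 RPM at RC4 and 98.3 to 114 RPM later. Caprin1, by contrast, was at 72.3 RPM in NT and 83.3 RPM at RC4. RC4 was the lowest point of the course for Tia1, Tial1, G3bp1, G3bp2 and Ubap2l.

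As log2 ratios of RC4 to NT, these were -1.18 (-1.88 to -0.51) for Tia1, -0.89 (-1.16 to -0.62) for G3bp1, -0.81 (-1.18 to -0.44) for G3bp2, -0.54 (-0.78 to -0.29) for Ubap2l and 0.20 (-0.16 to 0.57) for Caprin1. The ratio of Tial1 was not taken, since 1 library had fewer than 20 reads. Of the 5 members measured, 1 (Tia1) was at least 2-fold lower, as were 11.3% of 6240 genes, and the median of all genes was -0.24. With median ratio scaling in place of RPM no member was past that fold. At RC8 to RC24 the ratios of Tia1 ranged from -0.04 to 0.40 and those of G3bp1 from -0.23 to -0.04.

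**Figure D3:**
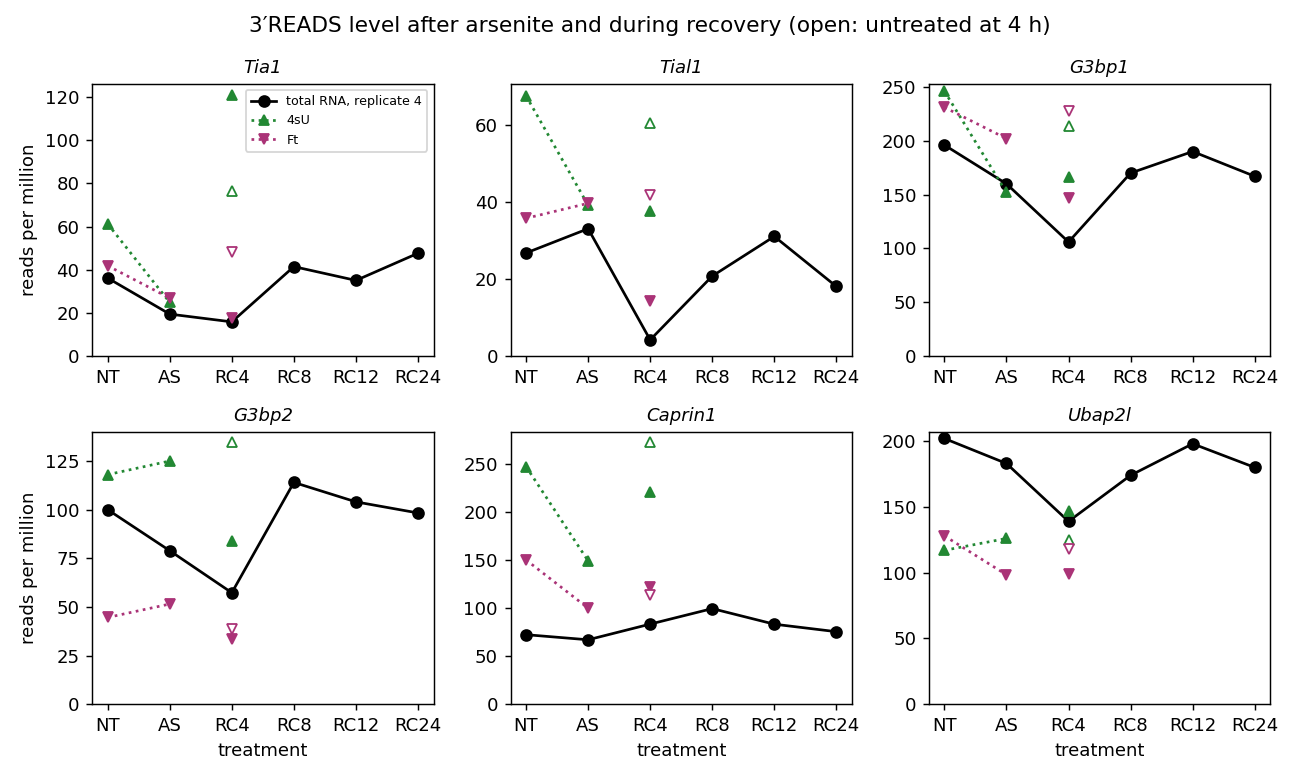
Level of 6 members in reads per 1000000 (y axis) by treatment (x axis) in the total RNA time course of replicate 4 (black line) and in the 4sU and Ft fractions, with open symbols for untreated cells at 4 h. Each point is 1 library. The line of Tia1 is lowest at RC4, at 15.9 RPM, while its 4sU point there, 121 RPM, is above the untreated 76.5 RPM.

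RNA-seq placed Tia1 lowest at RC4 too. Its 473 reads at RC4 stood against 1081 in NT4h, a log2 ratio of -0.94 (-1.10 to -0.79), and G3bp2 had 765 against 1423, or -0.65 (-0.78 to -0.52). Usp10, whose product deubiquitinates proteins and binds G3BP, had 2153 against 1279 reads, a ratio of 1.00 (0.90 to 1.10) that is just under the 2-fold limit before rounding. Atxn2l was at 0.73 (0.67 to 0.79), Atxn2 at 0.36 (0.28 to 0.45), Caprin1 at 0.35 (0.33 to 0.38) and G3bp1 at 0.26 (0.22 to 0.31). Ubap2l at 0.10, Pabpc1 at 0.09 and Tial1 at -0.12 moved less than 0.18, the change of Tia1 between untreated libraries. None of the 10 members was past 2-fold in either direction, where 14.7% of 10044 genes were higher and 13.2% lower. Of the other 44 stress granule genes 13 were past it, all higher, led by Fxr1, a paralogue of FMRP (1.86), Ewsr1, an RNA-binding protein of the FET family (1.72), and Cnbp, a zinc finger protein that binds nucleic acids (1.41). This count of 13 was taken under median ratio scaling only. Scaling by library totals lowers the ratio of every gene by the same amount, as the next paragraph shows for the members.

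Direction at RC4 depended on the scale for some members. It held the most reads, 25193331, but the smallest size factor, 0.804, and Hsph1, a heat shock protein gene, took 3.91% of its reads. Scaled by library totals, Tia1 was at -1.75, G3bp2 at -1.45, Tial1 at -0.93 and Usp10 at 0.20, so that 2 members were past the fold. G3bp1 (-0.54), Caprin1 (-0.45), Ubap2l (-0.70), Atxn2 (-0.44), Atxn2l (-0.08) and Pabpc1 (-0.71) then turned negative, and only Usp10 remained above 0, so the positive ratios of those 6 genes hold only under median ratio scaling.

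For Tia1 at RC4, labelled and unlabelled RNA lay on opposite sides of the untreated level. In the 4sU fraction Tia1 had 303 reads (76.5 RPM) in NT4h and 537 reads (121 RPM) at RC4, a log2 ratio of 0.66 (0.46 to 0.87). In the Ft fraction it had 160 reads (48.2 RPM) in NT4h and 54 reads (17.6 RPM) at RC4, a ratio of -1.46 (-1.93 to -1.0). The log2(Ft/4sU) of Tia1 was -0.55 in NT, 0.11 in AS, -0.67 in NT4h and -2.79 (-3.22 to -2.38) at RC4, while the median of all genes was -0.09, 0.05, -0.13 and -0.22. These ratios were not adjusted for the number of Us in a message. G3bp2 leaned to 4sU in all 4 sets (-1.40, -1.28, -1.81 and -1.33), as did Caprin1 (-0.72, -0.57, -1.26 and -0.86), while G3bp1 stayed between -0.17 and 0.42.

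Tial1 was lower in both fractions at RC4. It had 240 and 167 reads in 4sU, a ratio of -0.69 (-0.98 to -0.39), and 139 and 44 reads in Ft, a ratio of -1.55 (-2.07 to -1.05). In Ft, 2 of 7 members, Tia1 and Tial1, were at least 2-fold lower, and so were 20.3% of 7581 genes, so this count stands near the background. In 4sU at RC4 none of the 8 members with at least 20 reads in both libraries was at least 2-fold higher, compared with 6.93% of 8943 genes. None was at least 2-fold lower either, compared with 18.1% of those genes. With median ratio scaling Tia1 was at least 2-fold higher, at 1.01. Atxn2 had 42 reads (9.48 RPM) in 4sU at RC4 and was not listed in NT4h, which gives no ratio. G3bp2 was at -0.69 (-0.88 to -0.49) in 4sU but at -0.20 (-0.59 to 0.18) in Ft. Caprin1 was at -0.31 (-0.43 to -0.18) in 4sU, or 0.04 with median ratio scaling, and 0.09 (-0.12 to 0.30) in Ft. By RPM, the median of all genes was -0.28 in 4sU and -0.36 in Ft.

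Directly after arsenite, labelled RNA of several members was lower than in NT. Tia1 had 154 reads (61.3 RPM) in NT and 54 (24.9 RPM) in AS, a log2 ratio of -1.30 (-1.78 to -0.84). Of 7 members with at least 20 reads in both libraries it was the only 1 at least 2-fold lower, as were 6.72% of 7912 genes. The median ratio of all these genes was -0.13. Usp10 had 37 reads (14.7 RPM) in NT and was not listed in AS, which gives no ratio. Tial1 was at -0.79 (-1.18 to -0.40), Caprin1 at -0.73 (-0.93 to -0.54) and G3bp1 at -0.70 (-0.90 to -0.50). G3bp2 at 0.08 (-0.16 to 0.33) and Ubap2l at 0.10 (-0.14 to 0.34) had intervals that include 0. Untreated labelled RNA at 4 h and 0 h differed by 0.32 (0.04 to 0.61) for Tia1 and by -0.20 to 0.20 for Tial1, G3bp1, G3bp2, Caprin1 and Ubap2l. For Usp10, with 27 and 37 reads, these untreated libraries differed by -1.11 (-1.88 to -0.36).

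Within the labelled fraction, the longest isoforms of G3bp1 and Tial1 took a smaller share after arsenite. The 5174-nt isoform of G3bp1 made up 54.6% of its reads in NT (Wilson 95% interval 50.7 to 58.5%) and 17.3% in AS (13.6 to 21.8%). At 4 h it made up 50.2% in NT4h (46.8 to 53.5%) and 28.7% at RC4 (25.5 to 32.0%). In Ft the same isoform went from 21.2% to 9.74% at AS and from 20.9% to 10.2% at RC4. Counting intervals do not cover the spread between libraries: the same isoform took 22.7% (20.5 to 25.1%) and 3.23% (2.37 to 4.39%) in the 2 NT inputs, so these shifts have no replicate check. Its shortest 482-nt isoform was at 25.5% (22.5 to 28.7%) in NT4h and 48.6% (44.0 to 53.2%) at RC4 in Ft. In untreated labelled RNA this isoform was at 22.5% (19.3 to 25.9%) at 0 h and 16.3% (14.0 to 18.9%) at 4 h.

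The 2756-nt isoform of Tial1 made up 78.2% in NT (71.4 to 83.8%) and 61.2% in AS (50.5 to 70.8%) of labelled RNA, and 70.4% in NT4h (64.4 to 75.8%) and 42.5% at RC4 (35.3 to 50.1%). In Ft it was at 56.1% (47.8 to 64.1%) in NT4h and 34.1% (21.9 to 48.9%) at RC4. The 2430-nt isoform of Tia1 was at 62.3% in NT and 51.9% in AS in labelled RNA, and at 60.1% in NT4h and 60.3% at RC4. Its shorter 1813-nt isoform was at 14.9% (10.2 to 21.4%) in NT and 37.0% (25.4 to 50.4%) in AS in 4sU, and at 16.3% (10.8 to 23.8%) and 33.8% (23.9 to 45.4%) in Ft. The untreated libraries at 4 h had 27.1% and 23.8% of this isoform in 4sU and Ft.

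**Figure D4:**
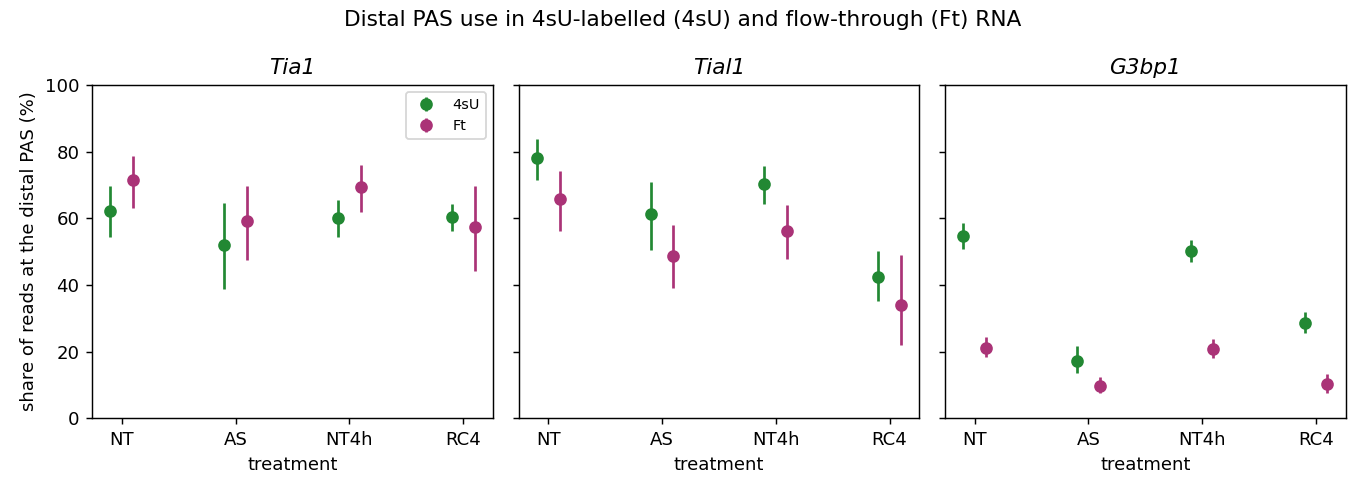
Share of the reads of Tia1, Tial1 and G3bp1 at the distal PAS (y axis, percent, with Wilson 95% intervals for counting error) in the 4sU and Ft fractions by treatment (x axis), 1 library a point. The share of G3bp1 in 4sU is 54.6% in NT and 17.3% in AS, and 50.2% in NT4h and 28.7% at RC4, while that of Tia1 is 62.3% and 51.9%, and 60.1% and 60.3%.

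In the cytoplasm of C2C12 cells, some members were lower at RC4 in MB. G3bp2 had 109 reads (63.2 RPM) in NT4h and 48 (22.1 RPM) at RC4 in MB, a log2 ratio of -1.51 (-2.04 to -1.01). In MT it had 121 and 102 reads, a ratio of -0.24 (-0.64 to 0.15). Tia1 had 41 reads (23.8 RPM) in NT4h and 10 (4.60 RPM) at RC4 in MB, too few for a ratio, and 42 and 40 reads in MT, a ratio of -0.07 (-0.73 to 0.59). G3bp1 was at -0.30 (-0.59 to -0.02) in MB and -0.42 (-0.68 to -0.16) in MT. Of 6 members measured in MB, G3bp2 alone was at least 2-fold lower, against 15.1% of 5658 genes. The median ratio of all genes at RC4 was -0.29 in MB and -0.12 in MT, so G3bp1 in MB was near that of all genes. The difference between MB and MT could not be tested, with 1 library each. Directly after arsenite, Ubap2l had 150 reads (64.3 RPM) in NT and 343 (117 RPM) in AS in MT, a ratio of 0.87 (0.59 to 1.15), and 154 and 309 reads in MB, a ratio of 0.37 (0.09 to 0.66). Its untreated MT libraries at 4 h and 0 h differed by 0.32 (0.02 to 0.63).

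Differentiation changed the level of several members clearly. In total RNA, Caprin1 was at 114 and 125 RPM in the 2 MB and at 233 and 223 RPM in the 2 MT libraries. Tia1 was at 48.4 and 43.4 RPM in MB and at 70.8 and 77.0 RPM in MT. Ubap2l went the other way, from 178 and 147 RPM in MB to 70.5 and 73.1 RPM in MT, as did G3bp2, from 98.7 and 108 RPM to 62.0 and 65.2 RPM. The groups do not overlap for any of these 4 genes.

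By edgeR over 10568 genes, 2 members rose in MT, Caprin1 (log2 fold change 1.09 ± 0.11 SE, adjusted p = 3.16e-07) and Tia1 (0.86 ± 0.14, adjusted p = 5.92e-05), where 32.3% of all genes rose. In the other direction, 3 members fell, Ubap2l (-1.01 ± 0.12, adjusted p = 4.3e-06), G3bp2 (-0.54 ± 0.12, adjusted p = 0.00134) and Pabpc1 (-0.64 ± 0.25, adjusted p = 0.0358), where 29% of all genes fell. G3bp1 (-0.21 ± 0.10, adjusted p = 0.0764) and Tial1 (-0.12 ± 0.15, adjusted p = 0.505) did not pass. A count of 5 of 7 is close to the share over all genes, and the members' median was -0.21, beside 0.038 over all genes. In bulk RNA, fewer cells of a type and less RNA per cell cannot be told apart. Of 38 other stress granule genes tested, 7 rose and 18 fell, led by Dyrk3, a kinase that dissolves granules (-1.75 ± 0.27, adjusted p = 4.94e-05), Fmr1 (-1.66 ± 0.13, adjusted p = 2.94e-08) and Hnrnpa1, a splicing factor (-1.65 ± 0.13, adjusted p = 2.89e-08).

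PAS use changed with differentiation as well. The 5174-nt isoform of G3bp1 took 21.6% and 20.8% of its reads in MB and 38.8% and 40.1% in MT, a relative log2 change of 0.62 (adjusted p = 0.000129, edgeR), while the 482-nt isoform went from 39.5% and 39.4% to 28.2% and 29.5% (-0.32, adjusted p = 0.0289). Caprin1 (chromosome 2, minus strand, 103603098 to 103637806) ends in alternative last exons, and the isoform with the 1275-nt 3′UTR rose from 53.1% and 53.3% to 79.7% and 81.7% (0.35, adjusted p = 0.0365). Its 166-nt isoform fell from 18.1% and 12.6% to 7.24% and 7.59% (-0.78, adjusted p = 0.0052), and its 1576-nt and 1790-nt isoforms fell as well (adjusted p = 0.00125 and 0.00186). The 1066-nt isoform of G3bp2 fell from 20.0% and 18.7% to 9.21% and 9.00% (-0.76, adjusted p = 0.00885). In all, 7 of 19 member PASs were called, against 8.25% of 12321 PASs. All of them lie in Caprin1, G3bp1 and G3bp2. Each PAS is tested against the others of its gene, so these calls are not independent of each other. No PAS of Tia1 or Tial1 was among them. Leaving out 1 of the 4 libraries left 2 to 3 of these calls.

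**Figure D5:**
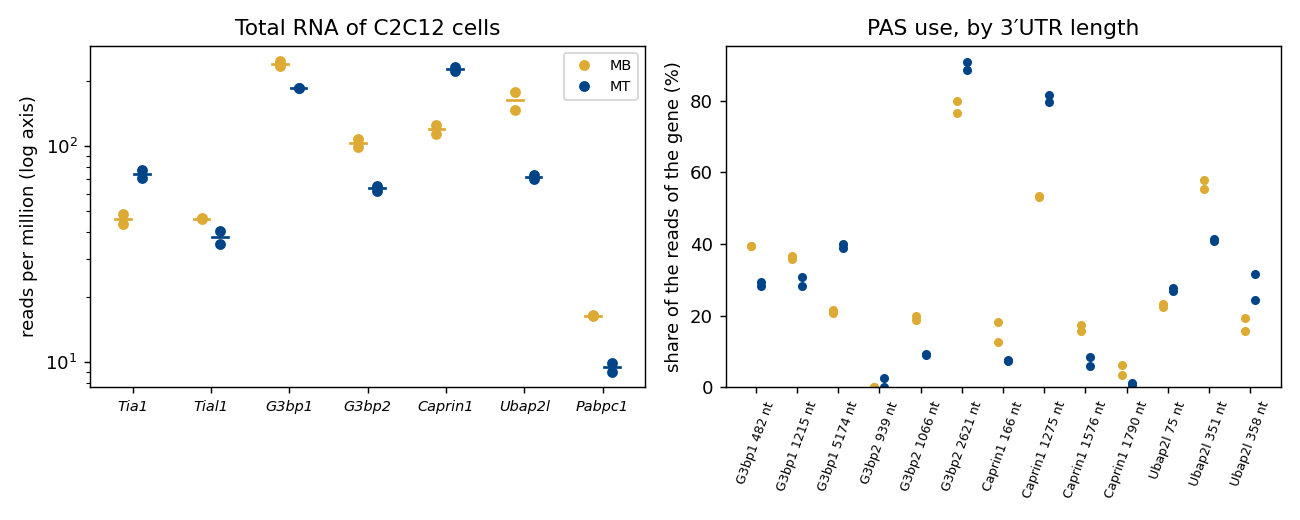
Left, level of 7 members in reads per 1000000 (log y axis) in the 2 MB and 2 MT libraries of total RNA, with lines at the means. Right, share of the reads of 4 members at each main PAS (y axis, percent), labelled by gene and 3′UTR length. Caprin1 and Tia1 are higher and Ubap2l lower in MT, and the 5174-nt isoform of G3bp1 is near 40% in MT and near 21% in MB.

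Across the 38 3′READS libraries, Tia1 ranged from 4.60 to 189 RPM with a median of 41.7 RPM. The genes whose log2(RPM + 1) followed that of Tia1 most closely, among 8119 with a mean of at least 10 RPM, were Casd1 (Pearson r = 0.873), Rbpj (0.873) and Sec16a (0.869). Among the members, G3bp1 (0.760, rank 111) and Tial1 (0.734, rank 175) were the closest, Ubap2l was at 0.300, G3bp2 was at 0.080 and Caprin1 at -0.092. The points share libraries, depth and treatments and include the immunoprecipitates, so these values are descriptions.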

How the data were processed

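The authors trimmed reads with Cutadapt, mapped 3′READS reads to mm9 with bowtie2, clustered PAS reads within 24 nt, and mapped RNA-seq reads with STAR, per the study's methods. They deposited raw counts, per PAS cluster or per gene on coding sequences, without normalization and without entries under 5 reads. Here the 99725 positions were joined within 24 nt across libraries into 83916 clusters. They were assigned to GENCODE M1 genes on NCBIM37, leaving out 749 ambiguous clusters and 31 predicted readthrough loci, and 92.56 to 96.54% of reads were assigned.

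Gene sums were tested with edgeR 4.0.16 (R 4.3.3) after filterByExpr, with median ratio scaling (library totals for TIA1 and input, with the lysate as block) and Benjamini-Hochberg adjustment over all genes at 0.05. SEs are the log2 fold change over the root of F. PAS use was tested with diffSpliceDGE. Single libraries with at least 20 reads were compared as log2 ratios, without a test, with a limit of 1. The members and lists were chosen with earlier results of these data known. All 10 members, PASs with at least 10% of a member's reads in an experiment, the 3 other stress granule genes with the largest called change, and the 3 genes most like Tia1 are named. Alternatives were TMM, other scaling, DESeq2 1.42.0, no filter, the block, left-out libraries and 1000 nt downstream. The replicate numbers pair the NT and AS libraries of total RNA: deviations from the group means correlated at 0.857, 0.865 and 0.780 for equal numbers. The code was checked on simulated counts. Intervals cover counting error only.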

Additional observations from a re-analysis of the deposited data

Results flagged for a closer look

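The log2 ratio of Tia1 at RC4 to NT4h was 0.66 in 4sU and -1.46 in Ft, a difference of 2.12, with counting intervals on opposite sides of 0. The same ratio of Ubap2l was 0.23 in 4sU and -0.25 in Ft, a difference of 0.48. In cytoplasmic RNA of C2C12 cells, the ratio of Ubap2l at RC4 was -0.34 in MB and 0.28 in MT, a difference of -0.62. Each value rests on 1 library a group, so none of these differences was tested against replicate spread.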

How the results depend on the processing

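The replicate block decided most counts of calls. With it, 28 genes in place of 0 were called between AS and NT in total RNA, 117 in place of 0 between the inputs, and 1 PAS in place of 0 in total RNA, with no member among the genes. The inputs have only 2 pairs (r = 0.583), so their pairing was not settled. MB and MT share only numbers (r = 0.053), and there the block gave 662 PASs in place of 1017. Without the block, TIA1 against input called 307 genes in NT (1960 with it) and 111 in AS (1813), with 0 members in either, 0 genes for the difference of AS and NT (2), and 3 and 0 PASs in NT and AS (17 and 4).

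DESeq2 called 26 genes between inputs, 2 members in AS immunoprecipitates and 24 genes for the difference of AS and NT. That difference had 1 gene with TMM, 1 with median ratio scaling and 8 without the low count filter. The filter also changed the input genes to 3 and the PASs in AS to 8. With 1000 nt downstream, 9 PASs were called in NT. By another scaling, 1 member was past 2-fold in 4sU at RC4 (median ratio), 0 in the time course at RC4 (median ratio), and 2 members and 4540 genes in RNA-seq at RC4 (library totals). 

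Leaving out 1 library or lysate gave 0 to 1 genes between inputs. It gave 1278 to 1835 genes and 0 to 2 members for TIA1 in NT, and 91 to 2560 genes and 0 to 4 members in AS. The difference of AS and NT had 0 to 35 genes. For PASs the ranges were 312 to 510 in MT against MB, with 2 to 3 of members, 0 to 3 for TIA1 in NT and 0 to 7 in AS. No alternative turned the direction of a called member. Depth limits Atxn2, Atxn2l, Usp10 and Pabpc1 in 3′READS, and recovery times, fractions, cytoplasm and RNA-seq had 1 library each. The causes of these changes were not tested.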
